A study of Mus musculus with 2 samples.

Results

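The Ndrg family (N-myc downstream-regulated genes) has 4 members in the mouse, Ndrg1, Ndrg2, Ndrg3 and Ndrg4, and was taken here as every probe set whose platform annotation names 1 gene and that gene is a member. This gave 10 probe sets for 4 genes, out of 34945 probe sets with exactly 1 gene and 18193 such genes on the array: 5 for Ndrg1, 1 for Ndrg2, 2 for Ndrg3 and 2 for Ndrg4. The samples were total RNA from embryoid bodies, the aggregates in which embryonic stem cells start to differentiate, made in hanging drops from CGR8 ES cells (a mouse line of strain 129 grown here without feeder cells). The control group, 1 array, was left in differentiation medium with no added agent, and the FGF10 group, also 1 array, was given recombinant FGF10, a secreted fibroblast growth factor, at 100 ng/ml. The labels place both samples at day 2, while the design text has RNA taken 24 h after 2-day embryoid bodies were treated. Each value is a MAS5 signal (a linear brightness per probe set), and each comparison is log2 of FGF10 over control, centred on the median of that ratio over kept probe sets. With 1 array per group there was no replicate check and no test. The family was selected on the measured FGF10 over control ratio of Ndrg1, which stood high in this same comparison, so that ratio is given as a description.

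Ndrg proteins share the fold of the alpha/beta hydrolases but are not known to act as such enzymes. Ndrg1 was named for its repression by the N-myc and c-Myc transcription factors, and it is also a widely used marker of low oxygen, since its transcript accumulates in hypoxia, in part through the hypoxia-inducible factors (HIFs). The Ndrg1 protein is a substrate of the kinase SGK1 and then of GSK3. Ndrg2 is known from astrocytes and muscle, Ndrg3 encodes a protein that is stabilised in hypoxia and binds lactate, and Ndrg4 is known from brain and heart.

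All 5 Ndrg1 probe sets were brighter on the FGF10 array, by 5.63-fold to 10.4-fold. The brightest, 1456174_x_at, had signals of 186.5 without and 1667 with FGF10, which is 8.73-fold or 3.13 as a log2 ratio. Probe set 1420760_s_at went from 177.1 to 1021 (2.49), and 1423413_at from 78.7 to 481.5 (2.58). Probe set 1450976_at went from 73.6 to 784.1 (3.38), and 1450977_s_at from 47 to 439.7 (3.19). On each of the 5 the FGF10 signal was the higher, and the dimmest pair belonged to 1450977_s_at. The median log2 ratio over the 5 was 3.13 and their SD was 0.39. These probe sets read the same 2 RNA samples, so they are not replicates of the treatment.

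The control signals of 1450976_at and 1450977_s_at lay under 76.35, the median brightness used as a filter, where a signal may not be above background. All 10 Ndrg probe sets had a mean signal over this filter, these 2 only through their FGF10 signals. With low signals raised to 76.35 before the ratio was taken, 1450976_at was at 3.33 and 1450977_s_at at 2.49. The 5 ratios then ran from 2.49 to 3.33. The suffix of a probe set name tells how specific its probes are: _at marks probes designed for 1 transcript, _s_at and _x_at probes that can match further transcripts, and _a_at probes shared by variants of 1 gene. The 2 Ndrg1 probe sets of the _at type, 1450976_at and 1423413_at, were at 3.38 and 2.58, and the 3 of the other types lay between 2.49 and 3.19.

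**Figure D1:**
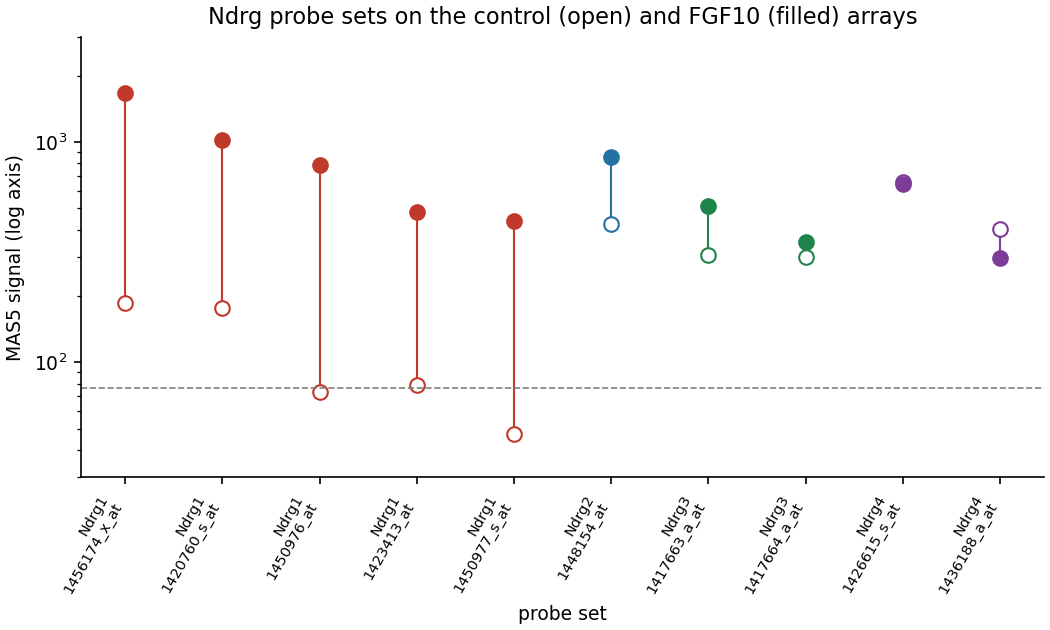
MAS5 signal (log axis) of each of the 10 Ndrg probe sets without FGF10 (open circles) and with it (filled circles), 1 array each, with the signal filter of 76.35 as a dashed line. The 5 Ndrg1 probe sets have control signals of 47 to 186.5 and FGF10 signals of 439.7 to 1667, while both circles of the Ndrg4 probe set 1426615_s_at, at 660.3 and 643.8, nearly coincide.

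By its brightest probe set, Ndrg1 was in place 4 of 11122 genes ordered by log2 ratio. For context, 1.32% of genes (147) passed 2-fold upward and 1.29% (144) downward, as did 1.58% (315) of the 19966 kept probe sets with 1 gene upward. These shares contain the contrast by which Ndrg1 was chosen. Ratios of single probe sets spread by an SD of 0.33 to 0.47 among probe sets as bright as those of Ndrg1. Over 5213 genes, the 2 brightest probe sets of a gene gave a technical SD of 0.267.

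Every kept probe set was at least 2-fold higher in 4 of the 2196 genes with at least 3 of them: Ndrg1, Tfap2c (lowest ratio 1.66), Adamts9 (1.52) and Mindy2 (1.13). Ndrg1 is in this count by the ratio that chose it, and 3 of its 5 probe sets remain when both arrays must pass the filter. Of the 5213 genes with at least 2, only Cer1, a secreted Nodal and BMP antagonist, had a higher lowest ratio (2.98) than the 2.49 of Ndrg1. The Ndrg1 probe sets spanned 0.89 on the log2 scale, against a median span of 0.63 for genes with at least 5 kept probe sets, of which 27.7% spanned as much or more.

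**Figure D2:**
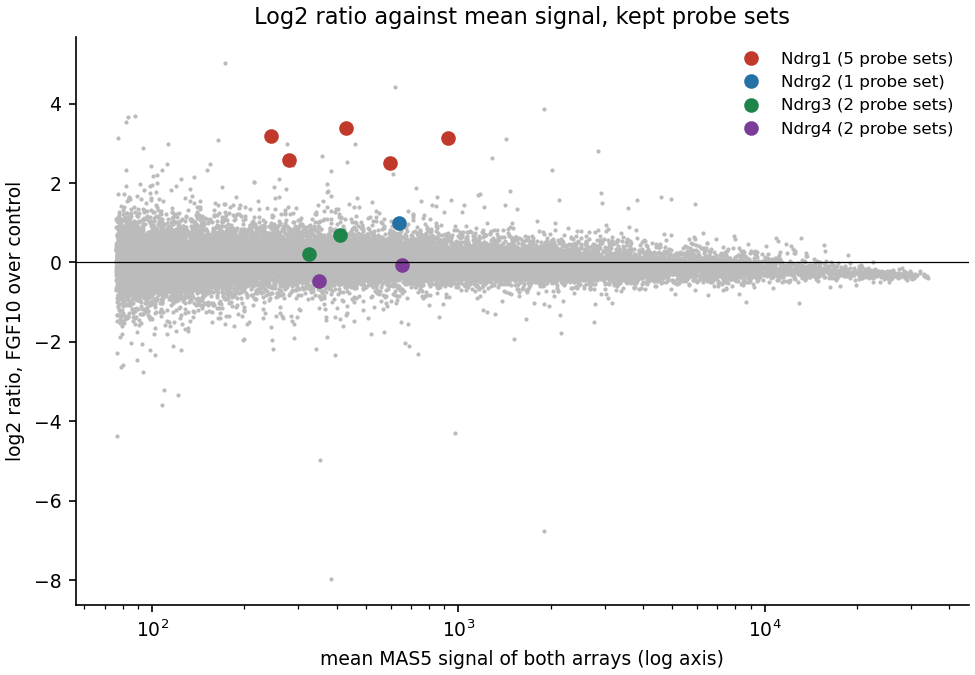
Log2 ratio of FGF10 over control against the mean MAS5 signal of both arrays (log axis) for the 22524 kept probe sets in grey, with the Ndrg probe sets coloured by gene. The 5 Ndrg1 points, at 2.49 to 3.38, lie above nearly all of the grey points, the Ndrg2 point (0.98) and the brighter Ndrg3 point (0.70) lie in the upper part of the cloud, and the Ndrg4 points lie at or under 0.

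The paralogues differed far less between the arrays, and not in 1 direction. Ndrg2 had signals of 422 and 855 on its only probe set, 1448154_at (log2 ratio 0.98, 1.98-fold), which put it in place 153 of 11122. It was just under 2-fold after centring on the median and just over it, at 2.03-fold, before. Of the kept probe sets, 1.68% had a higher ratio than Ndrg2.

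Ndrg3 had signals of 307.9 and 513.4 on 1417663_a_at (0.70, 1.63-fold) and of 298.8 and 353 on 1417664_a_at (0.21, 1.15-fold). Both were higher with FGF10, but only the first passed 1.5-fold, as did 602 of 11122 genes (5.41%). These probe sets differed by 0.50, while the technical SD of 0.267 is that of a single ratio and not of a difference. The size of the Ndrg3 ratio is uncertain, since it depends on which probe set is read.

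Ndrg4 had signals of 660.3 and 643.8 on 1426615_s_at (-0.071) and of 402.9 and 296.7 on 1436188_a_at (-0.48). Both were lower with FGF10, the first by less than the technical SD, and neither reached 1.5-fold, the size that 540 genes (4.86%) passed downward.

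The order of ratios by brightest probe set was Ndrg1, Ndrg2, Ndrg3, Ndrg4. Ndrg1 exceeded Ndrg2 by 2.14 on the log2 scale (4.41-fold), Ndrg3 by 2.42 and Ndrg4 by 3.20. With the least favourable choice of probe sets, these differences were 1.51, 1.79 and 2.56. Ndrg2 and Ndrg3 differed by 0.28 on their brightest probe sets, close to the technical SD of 0.267 for a single ratio. Ndrg3 exceeded Ndrg4 by 0.77 on the brightest probe sets and by 0.28 on the nearest ones. These are differences of ratios within 1 pair of arrays, with no interval over cultures.

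**Figure D3:**
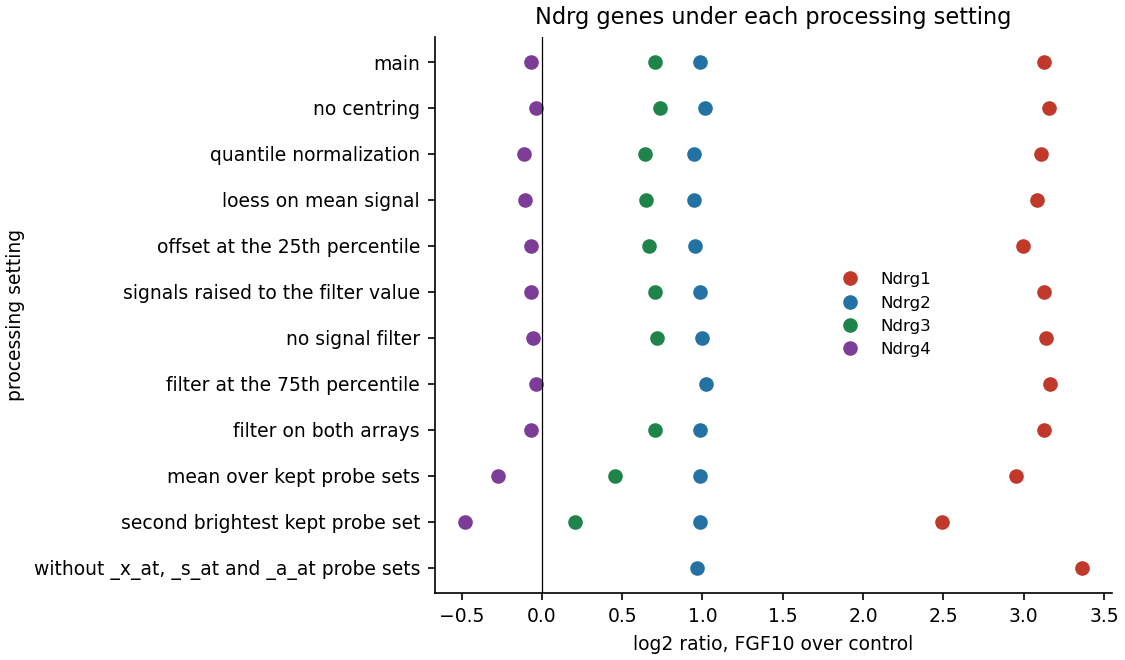
Log2 ratio (FGF10 over control) of each Ndrg gene under the main processing and each alternative, 1 point per gene and setting. Ndrg1 stays between 2.49 and 3.36 and above its paralogues in each of the 12 settings. Ndrg2 stays between 0.95 and 1.02, and Ndrg3 or Ndrg4 has no point where its probe sets were left out.

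The genes nearest to Ndrg1 in the order of ratios were fixed as the 3 just above and the 3 just below. Above it were Aplnr, the apelin receptor gene (4.42), Mixl1, a homeobox gene of the primitive streak (3.87), and Kcns3, a potassium channel subunit gene (3.14). Below it were Foxa2, a forkhead factor gene of endoderm and organizer (3.10), Sp5, a Wnt target (2.99), and Ndufa4l2, a mitochondrial protein gene known as a HIF target (2.99). Likeness over 2 arrays is only a like ratio. Aplnr, with signals of 54 and 1187.6, had a ratio of 3.92 with low signals raised to 76.35, and its dimmer probe set gave 2.32. Kcns3, with signals of 15.4 and 139.3, and Ndufa4l2, with 24.6 and 200, rested on dim control values and had ratios of 0.83 and 1.36 with low signals raised to 76.35. Ndrg1 (3.13) and Foxa2 (3.10) did not change, and Ndrg1 was then in place 3.

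HIF-inducible transcripts, other than Ndrg1 itself, were tallied from a list of 28 genes, of which 25 were measured. Of these, 14 were at least 1.5-fold higher with FGF10 (56%, against 5.41% of all genes), 0 were lower by that much and 11 lay between. Their median log2 ratio was 0.72, against -0.027 over all 11122 genes. The highest were Vldlr, a lipoprotein receptor gene, with signals of 165.3 and 579.4 (1.78), and Aldoc, a glycolytic aldolase gene, with 534.6 and 1775.9 (1.70). Egln1, which encodes an oxygen-sensing prolyl hydroxylase, was at 1.45, Pfkfb3, a regulator of glycolysis, at 1.38 and Ddit4, an inhibitor of mTORC1, at 1.37. None of the 25 reached the ratio of Ndrg1, or even that of its lowest probe set. The ratio of Ndrg2 was exceeded by 10 of them and that of Ndrg3 by 13.

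The members of that list that were close to equal on the arrays include Ldha, the lactate dehydrogenase gene (0.011), Pdk1 (-0.028) and Vegfa, the vascular growth factor gene (0.24). Vegfa was dim, with signals of 123.8 and 149.9. Ldha, at 22159.3 and 22858.9, was bright on both arrays.

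The genes of the HIF subunits and oxygen sensors were measured in all 11 cases, and 3 of them passed 1.5-fold upward (27.3%, against 5.41% of all genes) and 0 downward (against 4.86%). Their median was 0.18. The 3 were Egln1 and Egln3 (1.08), both of which the HIF-inducible list also holds, and Hif3a (0.82). The probe sets of Hif3a ran from 0.11 to 0.82. The transcript of the oxygen-regulated subunit Hif1a had signals of 7033.9 and 7416.7 (0.042) and its partner Arnt was at 0.026. Epas1, which encodes HIF-2alpha, was at -0.57, short of 1.5-fold. HIF activity is set largely by protein stability, which these arrays do not measure.

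**Figure D4:**
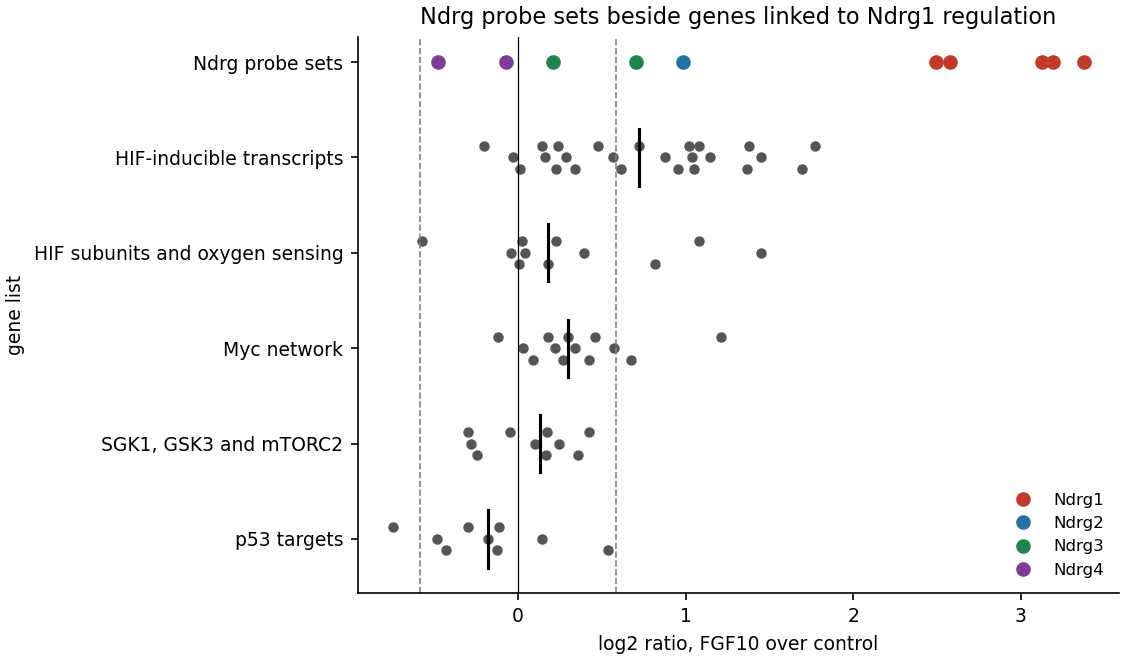
Log2 ratio of FGF10 over control for the 10 Ndrg probe sets (top row, coloured by gene) and for measured genes of 5 lists linked to the regulation of Ndrg1 (grey points, with the list's median as a black bar). Dashed lines mark 1.5-fold in each direction. The Ndrg1 points, at 2.49 to 3.38, lie to the right of every listed gene, but Ndrg1 was chosen for its high ratio. The HIF-inducible list has the highest median of the 5, at 0.72.

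The Myc network, whose activators repress Ndrg1 and Ndrg2, held 13 measured genes. Of these, 2 passed 1.5-fold upward (15.4%, against 5.41% of all genes) and 0 downward (against 4.86%), and the median was 0.30, against -0.027 over all genes. The repressor of the family name, Mycn, had signals of 3764.6 and 3551.2 (-0.12), and Myc had 1024.9 and 1264 (0.27). Max, the shared dimerisation partner, was the highest, with 422.4 and 1000.1 (1.21) on its only kept probe set. Mxd1, a Max partner that acts as a repressor, was at 0.67 with a control signal under the filter, and Mnt and Mxd4, of the same kind, were at 0.57 and 0.46. The other kept probe set of Mxd4 was at -0.22.

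The kinases that phosphorylate Ndrg1 and the mTORC2 complex upstream of SGK1 held 10 measured genes, with a median of 0.13. None passed 1.5-fold in either direction, against 5.41% of all genes upward and 4.86% downward. Sgk1 had signals of 7695.4 and 9332 (0.24). Gsk3b was at 0.36 on its brightest probe set, but its 6 probe sets ran from -0.10 to 1.18. Mlst8, a subunit of both mTOR complexes, was at 0.42, and Sgk2 (-0.30) and Mapkap1 (-0.28) were the lowest.

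The p53 pathway, which can also induce Ndrg1, was read from 9 measured genes of 12, and its median was -0.18. The gene of p53 itself was not analysed here. Mdm2, a p53 target and its ubiquitin ligase, was more than 1.5-fold lower on its brightest probe set (-0.75). The other kept probe set of Mdm2, at -0.43, fell short of 1.5-fold. Zmat3 was at 0.54, Sesn2 at -0.48 and Ccng1 at -0.43. None of the 9 was at least 1.5-fold higher (against 5.41% of all genes), and 1 was lower by as much (11.1%, against 4.86%). Egr1, a growth factor response gene, was at 0.47.

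RefSeq windows of 250 bases before a gene start (GRCm38.p6) were held for 3 members, 3 windows for Ndrg2, 2 for Ndrg3 and 4 for Ndrg4. Ndrg1 was not analysed in this respect. The core of the HIF binding site is ACGTG or GCGTG, and the Myc E-box, CACGTG, contains ACGTG on both strands. Of 32851 such windows in the mouse, 16.6% held ACGTG on either strand, 28.2% GCGTG and 6.02% CACGTG. Of the members' windows, 1 for Ndrg4 held ACGTG, as part of an E-box, and at least 1 window of each paralogue held GCGTG. Since each paralogue has more than 1 window, this cannot be set against the 28.2% of single windows. The lines show 30 bases around 1 match per paralogue, and around the ACGTG nearest the start in Egln1 and Pfkfb3, the ones with such a match among the 4 highest HIF-inducible genes. Capitals mark the core. In the Pfkfb3 line, as in the Ndrg4 line, the ACGTG is part of an E-box.
Ndrg2, chr14:51913608-51913637, minus strand: ccgttgatgtggGCGTGgggaccatttggg
Ndrg3, chr2:156991780-156991809, minus strand: cggcggagggcaGCGTGtgacctgttgggg
Ndrg4, chr8:95677714-95677743, plus strand: gcccacccacccACGTGggcacgcccccgc
Egln1, chr8:124949305-124949334, minus strand: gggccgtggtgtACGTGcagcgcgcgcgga
Pfkfb3, chr2:11502125-11502154, minus strand: acccttctctccACGTGaaagggggctggg

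The Ndrg4 window with the E-box belongs to the member whose ratio by brightest probe set was nearest 0 (-0.071; by the second brightest, Ndrg3 at 0.21 was nearer 0 than Ndrg4 at -0.48), and the windows of Ndrg2 (0.98) and Ndrg3 (0.70) shown hold only the GCGTG core. Among the HIF-inducible genes with a window, 17 of 24 held ACGTG and the same number GCGTG, each 70.8%, against 18.5% and 30.9% of all 27025 genes. Base composition was not matched. A match is a run of letters, not a bound site.

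Some markers of the stage and of other cell types moved with the comparison, and their part in the Ndrg ratios was not tested. In bulk RNA, a different number of cells of a type and a different amount of RNA per cell cannot be told apart. The shares of all genes to read these counts against are 5.41% higher and 4.86% lower at 1.5-fold, and 1.32% higher at 2-fold. The stem cell genes Pou5f1 (8157.8 and 8787.2) and Nanog (6616.1 and 7878.5) were bright on both arrays. Of the 7 stem cell markers 2 were at least 1.5-fold lower with FGF10, Dppa5a (17188.2 and 8648.7, a ratio of -1.03) and Zfp42 (1397.4 and 873.9, -0.71), and 0 were higher by as much. The summed signal of the 7 went from 53946.3 to 47277.2. All 8 primitive streak markers were at least 2-fold higher with FGF10, their summed signal going from 3577 to 16621.7. For visceral endoderm, an outer layer of embryoid bodies, 5 of 10 markers were at least 1.5-fold lower and 2 higher by as much, and the summed signal went from 12128.9 to 8944.7. For trophoblast, a cell type known for abundant Ndrg1, all 6 named markers were under the filter on average, with summed signals of 309.1 and 248.4. Neural and glial markers, relevant to Ndrg2 and Ndrg4, summed to 2072.1 and 1855.3, and 6 of the 9 were measured. Gfap and Aqp4, which mark astrocytes, were under the filter, while the glial marker Slc1a3 was over it, at 264.1 and 256.2. Among the 6, Pax6 (101.2 and 53.6, -0.95) was the 1 at least 1.5-fold lower, and 0 were higher by as much. Cardiac markers summed to 722.3 and 634.5. The 3 of 8 over the filter, Myh6 (279.5 and 255.4), Actn2 (207.8 and 137.6, -0.63) and Nkx2-5 (91 and 72), were lower with FGF10. Only Actn2 was lower by at least 1.5-fold, and the rest of the 8, such as Tnnt2 at 8 and 22, were under the filter. Fibroblast markers summed to 641.7 and 490.4. Over the filter were only 2 of the 8, Thy1 (369.4 and 248.3, -0.61) and Col1a2 (136.8 and 120.5, -0.22). Thy1 alone was lower by at least 1.5-fold, and 0 were higher by as much.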

How the data were processed

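Arrays of embryoid bodies, 1 control and 1 with FGF10, were compared, grouped by the sample titles. The deposited values are MAS5 signal, a linear intensity per probe set, per the submitters' processing notes, with no version stated. The mean of each array without its lowest and highest 2% is 500.003, so the authors' values appear scaled to a common target. A ratio is then relative to the rest of the array. Depth does not apply, and 1 array per group limits the precision.

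Of 45101 probe sets, 64 controls were left out. Kept probe sets (22524) had a mean signal of at least 76.35, the median of the rest. The log2 ratio was centred by subtracting 0.034, and a gene took its brightest kept probe set. The technical SD was taken from each gene's brightest and next brightest kept probe sets, as the SD of their difference in log2 ratio over the square root of 2. It says nothing of variation between cultures. Counts use a fixed fold of 2, or 1.5 for lists.

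Genes named are the members, 6 neighbours in the order of ratios, up to 4 genes per list by absolute ratio, and a fixed set. Others, such as Pdk1, Ldha and Vegfa, were picked with their values in view. The members and lists were chosen with earlier results of these data known. Gene names come from the platform annotation. Promoter windows are from RefSeq, without chromosome 18. The steps were tested on simulated data with less noise than the technical SD, by medians over sets of genes. How well single ratios are recovered was not judged. Python 3.11.15, numpy 2.4.6, pandas 2.3.3 and statsmodels 0.14.6 were used.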

Additional observations from a re-analysis of the deposited data

How the results depend on the processing

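Of 262 alternative values, 238 stayed within the technical SD (for ratios) or within 1.5 times (for counts), and none reversed. These leave out the ratios of single Ndrg probe sets. With an offset of 20.5 added to each signal, 1423413_at (2.31), 1450976_at (3.06) and 1450977_s_at (2.74) fell by more than the technical SD. The Ndrg1 probe sets 1420760_s_at (2.37) and 1456174_x_at (2.99) stayed within it. Raised signals also took 1450977_s_at beyond it, to 2.49. With the second brightest kept probe set, Ndrg1 was at 2.49, Ndrg3 at 0.21, Ndrg4 at -0.48 and the excess of Ndrg1 over Ndrg2 at 1.51; that setting reads other probes by construction. The place of Ndrg1 among genes ran from 2 to 11, except with no signal filter, where it was 150 of 18193. Ndrg2 passed 2-fold with no centring (1.02) and at the 75th percentile filter (1.02).

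Genes at least 2-fold higher and lower numbered 1459 and 1805 with no signal filter, 42 and 14 at the 75th percentile filter, 97 and 74 with a filter on both arrays, 602 and 540 at 1.5-fold and 43 and 26 at 3-fold, and 87 were lower with signals raised to the filter value. The oxygen-sensing list had 1 member lower after quantile or loess normalization and without _x_at, _s_at and _a_at probe sets. The Myc network had 1 member higher, not 2, with a filter on both arrays, an offset or raised signals. With second brightest probe sets the kinase list had 1 member higher and the p53 list 0 lower, as did the p53 list without _x_at, _s_at and _a_at probe sets (0). No paired analysis was possible because each group has 1 array. Ratios of dim probe sets are the least certain.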
